A study of Drosophila melanogaster with 2 samples.

Results

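Distal 3' UTR peaks were the ChIP-seq peaks of the CG33017 protein whose summit lay in an annotated 3' untranslated region (3' UTR), in no coding sequence or 5' UTR of any transcript, and more than 500 bp from every transcription start site (TSS). The rule used position alone and no measured signal. Of the 30000 peaks called on the pooled replicates, 1229 met it, or 4.10% (exact 95% interval 3.88 to 4.33%, counting error of peaks only). Chromatin came from whole adult male Drosophila melanogaster, of unknown age, from a transgenic line that stably expresses CG33017 with GFP at its C-terminus. It was precipitated after sonication with an anti-GFP antibody, as the sample description states. The antibody field of the labels names CG33017 instead, and the description was followed. The 2 samples are biological replicates of 1 group, so no condition was compared and no test between groups was possible. Both carry the same tagged transgene, whose promoter is not given in the sources used here. Untagged flies were not analysed here. Whole animals mix all tissues, so a site bound in few cells and a site bound weakly in many cannot be told apart.

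The 3' UTR is the part of a messenger RNA between the stop codon and the poly(A) tail. In RNA it carries sites for microRNAs and RNA-binding proteins, and flies are known for very long 3' UTRs in neurons. In DNA it lies at the far end of the gene from the promoter, where RNA polymerase II reads past the poly(A) signal and terminates. The gene-dense fly genome often places the end of a gene next to the start of the next one or against the end of a gene on the other strand, and the limit of 500 bp was set to keep promoters out. The host gene of a peak below is the gene whose 3' UTR covers the summit.

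The sequences under the strongest of these peaks are shown first. Each line gives the 30 bases centred on the summit, 5' to 3' on the strand of the host gene, on dm6 coordinates. Capitals mark any of the 18 short consensus sequences searched. The first 8 are the summits of highest signal, and the last 2 the next strongest with CGATA, the core of the DRE promoter element, on either strand within these 30 bases. Summits on 1 chromosome arm were not considered for display.
stas, chrX:17625074-17625103, minus strand: tcaaaactggttcttcactgtgcgtatgag
by, chr3R:9528636-9528665, minus strand: aacgccacTGATTCAtatttgTTTATAtgc
Lsd-2, chrX:15069493-15069522, minus strand: gggcgtgtcatcctttgatcaacacgagtg
Pbgs, chr3L:12270034-12270063, minus strand: ttaaataagactcaaaggcttttacttaca
CG5984, chr3R:27246399-27246428, minus strand: ataaattcactaaaataacagttatataag
CG5828, chr2L:5095455-5095484, plus strand: tcatgacggcggtttatTATCGgtcatggt
CtsB, chrX:13779936-13779965, minus strand: aaaaaagaaaatgattatcaaactggaact
CG8206, chrX:15740345-15740374, plus strand: aatacatatgtatatgtacaatcatcaagt
Eip78C, chr3L:21266414-21266443, plus strand: taaataacgaaagaCGATAagaacactgca
Ugt303A1, chr3R:11177787-11177816, plus strand: tgagggaaatttaatcgccagTATCGtaaa

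No consensus was in all 10 windows. In by the capitals are an AP-1 site and a TATA box on the opposite strand, and in CG5828, Eip78C and Ugt303A1 they are the DRE core. Base composition varied widely, from 14 A or T of 30 at Lsd-2 to 25 of 30 at CG5984.

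The strongest distal 3' UTR peaks lay at genes of varied function and were found in both replicates. The highest was in stas, the orthologue of the endoplasmic reticulum membrane protein TMEM41B (X, 17624875 to 17625252, signal 747.7). It ranked 191 in the pooled list, 172 in replicate 1 and 237 in replicate 2. Signal here is the peak caller's own value for each peak as deposited, and ranks count from the highest signal in a list of 30000. The second was in by, which encodes tensin, a link between integrins and actin (3R, 9528515 to 9528770, signal 486.1). It ranked 315 in replicate 1 and 599 in replicate 2. The third was in Lsd-2, a perilipin that coats lipid droplets (X, 15069347 to 15069686, signal 396.6), at ranks 456 and 733. These 3 summits lay 2501 to 4360 bp from the nearest TSS and 317 to 825 bp from a 3' end of their host.

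Other strong peaks lay at enzyme genes. The peak in Pbgs, the porphobilinogen synthase of haem synthesis, had signal 372.0 and ranked 514 in replicate 1 and 890 in replicate 2 (3L, 12269986 to 12270284). That in CtsB, the lysosomal protease cathepsin B, had signal 233.9 and ranked 2002 and 1208. The peak in Nadk1a, an NAD kinase gene, had signal 209.1 and ranked 1293 and 3251. The peak in aay, the phosphoserine phosphatase gene, had signal 206.1 and ranked 1438 and 2591. The peak in wal, which encodes a subunit of the electron transfer flavoprotein, had signal 201.7 and ranked 1339 and 2842. Replicate 1 gave the better rank at 4 of these 5 genes, and replicate 2 gave it at CtsB.

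Regulatory genes were also among the first 20. The peak in Glut4EF, a transcription factor gene, had signal 202.4 and ranked 2850 in replicate 1 and 1073 in replicate 2. The peak in Myd88, the adaptor of the Toll immune pathway, had signal 186.1 and ranked 1760 and 2434. The remaining hosts were CG30159, CG5984, CG5828, CG1888, CG8206, FBgn0010926, CG17652, CG14440, CG12851 and Sugb, with signals from 173.3 to 347.5. Each of the 20 lay in a different gene. All 20 were in the list of peaks that passed the authors' threshold on the irreproducible discovery rate (IDR), as were all 2268 pooled peaks down to the lowest rank among them. The IDR list consisted of exactly the 4867 pooled peaks of highest signal, so being in it is a statement about pooled signal and not a separate readout. Their lowest ranks were 3606 in replicate 1 and 3378 in replicate 2, and 16 of the 20 ranked better in replicate 1. Over all 567 members found in both replicates the balance was different, with 272 ranked better in replicate 1, as for 9441 of the 20069 pooled peaks found in both.

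**Figure D1:**
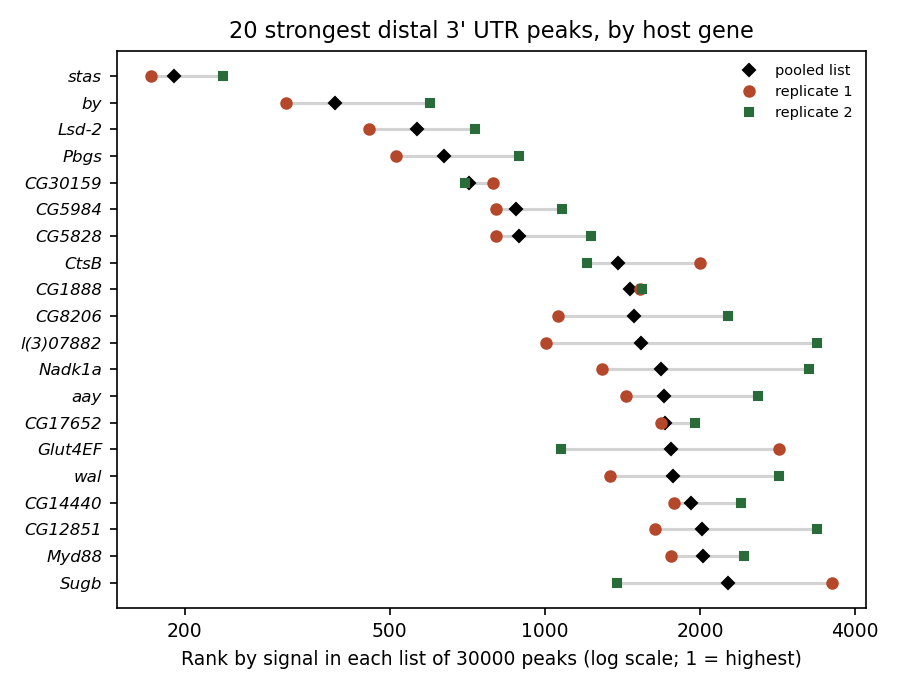
Ranks of the 20 strongest distal 3' UTR peaks, 1 row per host gene, in the pooled list (diamonds), replicate 1 (circles) and replicate 2 (squares), on a log axis where 1 is the highest signal. All 20 have rank 3606 or better in both replicates, and a grey line joins the replicates.

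Most distal 3' UTR peaks were weak. Their median signal was 32.0 (quartiles 26.4 and 43.6), against 42.6 for all pooled peaks and 58.8 for the 11622 promoter peaks within 500 bp of a TSS. Among other peaks away from promoters, the medians were 42.6 in 5' UTRs, 39.3 in introns, 38.4 in non-coding exons, 35.4 between genes and 27.8 in coding sequence. The median rank of the 3' UTR peaks was 20645 of 30000. These are values within 1 list and no test was made between classes.

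The share of distal 3' UTR summits rose down the list. Sequence that meets the rule makes up 4.43% of the chromosome arms (5.93 Mb), so the 1229 peaks, at 207 per Mb, were near the 224 per Mb of all pooled peaks. Along the list this average was not kept. Of the 6000 peaks of highest signal, 77 (1.28%, exact 95% interval 1.01 to 1.60%) were distal 3' UTR peaks, which is 0.290 of the share of bases. The next groups of 6000 held 139, 250, 342 and 421. The last share was 7.02% (6.38 to 7.69%), or 1.58 times the share of bases.

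The replicate lists gave the same course. In the 6000 highest peaks of each replicate's own list the share was 1.31% ± 0.0118 (SD, n = 2), and in the 6000 lowest it was 6.47% ± 0.141 (SD, n = 2). By the same rule the list of replicate 1 held 1270 distal 3' UTR peaks and that of replicate 2 held 1249. The lists share a control alignment, so they are not fully independent.

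**Figure D2:**
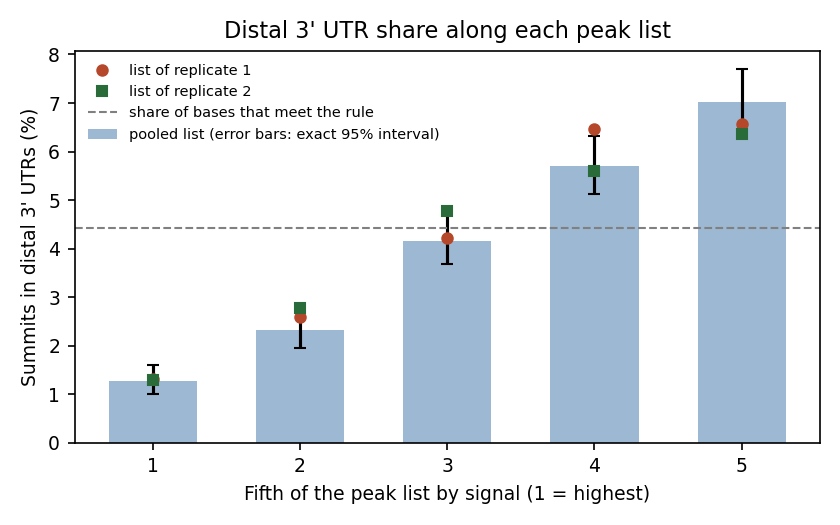
Percent of summits in distal 3' UTRs in 5 groups of 6000 peaks ordered by signal, for the pooled list (bars, with exact 95% intervals) and for each replicate's own list (points), with the share of bases that meet the rule as a dashed line. The share climbs from 1.28% in the first group to 7.02% in the last and crosses the dashed line after the third group.

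A smaller share of distal 3' UTR peaks than of all pooled peaks was in the IDR list, that is among the 4867 highest pooled peaks, or in both replicates. In the IDR list there were 58 of 1229, or 4.72% (exact 95% interval 3.60 to 6.06%), where the background over all pooled peaks was 16.2%. The percentage was 14.3% for distal non-coding exons, 13.7% for distal 5' UTRs, 12.1% for distal introns, 9.31% for distal intergenic peaks and 0.677% for distal coding peaks. A peak of replicate 1 overlapped 811 of the members (66.0%, background 79.4%) and a peak of replicate 2 overlapped 864 (70.3%, background 82.4%). Both replicates overlapped 567, or 46.1%, against a background of 66.9%. Another 244 were overlapped in replicate 1 only, 297 in replicate 2 only, and 121 in neither. The exact interval counts each of the 58 as separate, though a pair in Pbgs overlaps and answers to the same peak in each replicate.

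Signal moved with these percentages. Among the 6000 highest pooled peaks, all 77 distal 3' UTR peaks were overlapped in both replicates, as were 99.7% of all peaks there. In the second group the shares were 91.4% of the 3' UTR peaks and 95.5% of all peaks, and in the last group 18.8% and 23.8%. Within each group of 6000 the gap between the 3' UTR peaks and all peaks was smaller than over the whole list. Across the 567 peaks found in both, Spearman's rho of the ranks was 0.451, beside 0.634 for the 20069 pooled peaks found in both. The 567 lay lower in the replicate lists, at median ranks of 15954 and 13665 against 10030 and 9515. The 2 rho values are therefore not for peaks of like signal. These values describe peaks of the same libraries, and the pooled and IDR lists reuse the reads of the replicate lists. Neighbouring members can answer to the same replicate peak (132 members in replicate 1 and 136 in replicate 2 share theirs with another pooled peak).

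**Figure D3:**
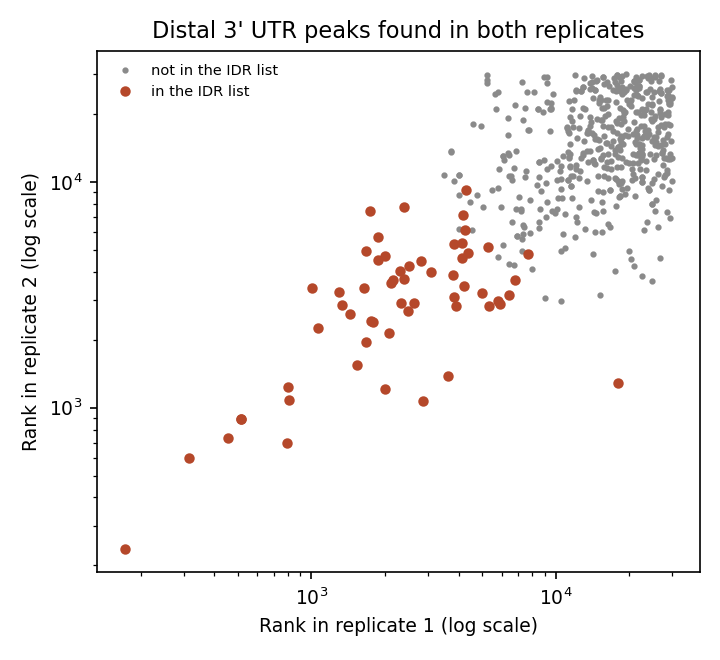
Rank in replicate 1 against rank in replicate 2, both on log axes, for the 567 distal 3' UTR peaks overlapped in both lists, with the 58 peaks of the IDR list as large points. IDR peaks have median ranks of 2356.5 and 3186.5, and a single IDR point lies far to the right at rank 17926 in replicate 1.

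Some members differed strongly between replicates. The IDR peak in Cals (4, 1113122 to 1113525, signal 166.2) ranked 17926 in replicate 1 and 1288 in replicate 2, and is the isolated point in the plot of ranks. Cals was named after its value was seen. Of the members found in both lists, the largest rank differences were at Drice, an effector caspase gene, at CG7970 and at fok. The Drice peak ranked 5249 in replicate 1 and 29919 in replicate 2. The CG7970 peak ranked 5247 and 28264, and the fok peak 5212 and 27576. The next largest difference, at Octalpha2R, went the other way, with ranks of 29227 and 6901, and was named after its value was seen.

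The peaks were spread over 1022 host genes. Of these, 865 held a single member, 121 held 2, 28 held 3 and 8 held 4 or more. Another pooled peak overlapped 253 of the 1229, so members of 1 gene are not always separate sites. For 50 peaks more than 1 gene had a 3' UTR over the summit, and the gene with the nearest 3' end was taken as the host. The length of qualifying sequence went with the chance of holding a peak. Of all 11074 genes that own such sequence, 9.23% held a member. The share was 1.49% of genes with up to 200 bp, 16.7% of those with 500 to 1000 bp and 38.1% of those with more than 2000 bp. Per Mb, the density was 161 in the shortest group, highest at 263 between 500 and 1000 bp, and 164 above 2000 bp.

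The genes with most members have long 3' UTRs. The gene ps (pasilla), which encodes a splicing regulator of the Nova family, (gene at 3R, 9417940 to 9455500) held 7 peaks over 8756 bp of qualifying sequence. Their signals ran from 24.5 to 63.6, none was in the IDR list, and 4 of the 7 were overlapped in both replicates. Glut4EF held 6 over 9908 bp, with signals from 26.4 to 202.4, 2 of them in the IDR list and 5 in both replicates. Lsd-2 held 4 over 3080 bp, with signals from 52.2 to 396.6, and all 4 were in both replicates. Each replicate's own list also held 4 in Lsd-2. The pooled 4 form overlapping pairs, and some peaks of ps, Glut4EF, l(3)neo38 and Octalpha2R also overlap. Counts per gene are thus not counts of separate sites.

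In the other 5 such genes no peak was in the IDR list. In corto, which encodes a chromatin protein, 4 peaks had signals from 55.1 to 95.6, and 2 were in both replicates. In l(3)neo38 the 5 peaks had signals from 23.9 to 48.9. In Cam, the calmodulin gene, the 4 ran from 23.9 to 64.6. In Octalpha2R, an octopamine receptor gene, they ran from 26.4 to 53.1. In cpx, which encodes the synaptic protein complexin, 4 peaks with signals from 25.7 to 40.2 included none found in both replicates. The list of replicate 1 held 1 in cpx and that of replicate 2 held 4. Of the 8 genes, Glut4EF and Lsd-2 alone had IDR peaks in their distal 3' UTRs.

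Within the 3' UTR, peaks lay somewhat more often towards the end. Of the 1229, 540 (43.9%) were within 200 bp of an annotated 3' end of the host, where 40.2% of qualifying bases lie. The replicate lists gave 42.5% ± 1.69 (SD, n = 2), with 43.7% in replicate 1 and 41.3% in replicate 2, both above the share of bases but by no more than a few points. Each continuous 3' UTR block was cut into 3 equal parts in the host's direction. A gene can have several blocks, so an outer part need not adjoin the stop codon or a 3' end. The first part held 28.6% of peaks and 32.9% of bases. The middle part held 33.7% and 34.2%, and the last part held 37.7% and 32.9%. Density was 240 per Mb within 50 bp of a 3' end and 140 per Mb beyond 1000 bp. Of the 58 IDR peaks, 30 (51.7%) lay within 200 bp of a 3' end.

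Density was lowest far from a TSS. It was 243 per Mb up to 1000 bp, 261 from there to 2000 bp, 211 from 2000 to 5000 bp and 114 beyond 5000 bp. The median distance to a TSS was 1926 bp. For 428 peaks (34.8%) the nearest TSS was the host's own, and for 740 (60.2%) it belonged to another gene downstream. Over qualifying bases these shares were 32.1% and 62.0%. For IDR peaks they were 55.2% and 41.4%. The farthest members were a pair in trv, at 40143 bp (signal 23.6) and 39901 bp (signal 42.4), which overlap and answer to the same peak in each replicate, and the strongest Glut4EF peak, at 26046 bp.

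The rule's limit of 500 bp cut through a continuous range. A further 253 pooled peaks met the rest of the rule but lay nearer to a TSS. Just inside the limit were peaks in CG33493 at 501 bp (signal 26.5) and in Dora at 510 bp (signal 34.8). Just outside were peaks in CG14137 (signal 161.9) and vsg (signal 71.1), both at 498 bp.

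**Figure D4:**
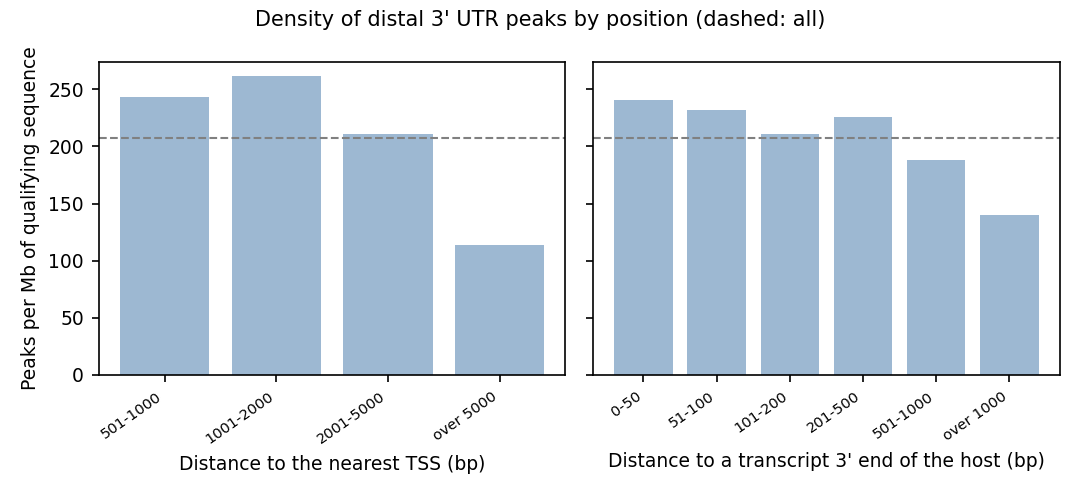
Distal 3' UTR peaks per Mb of qualifying sequence, by distance to the nearest TSS (left) and to a 3' end of the host gene (right), with the overall 207 per Mb as a dashed line. Density is lowest beyond 5000 bp from a TSS, at 114 per Mb, and beyond 1000 bp from a 3' end, at 140 per Mb.

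Genes on the other strand were often nearby. At 365 peaks (29.7%) the summit lay inside a transcript of the other strand or within 500 bp of the 3' end of one, which held for 25.3% of qualifying bases. The replicate lists gave 29.6% ± 2.63 (SD, n = 2). Among IDR peaks it was 26 of 58 (44.8%), among the other members 339 of 1171 (28.9%). Examples were the peaks in Lsd-2, Pbgs, CtsB, aay, wal and Myd88. Among the first 20, 9 had such a neighbour.

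Most host genes also carried a CG33017 peak at their promoter. A pooled summit lay within 500 bp of a TSS of 899 of the 1022 hosts (88.0%), where the background over genes that own qualifying sequence was 64.6%. An IDR summit was there at 445 hosts (43.5%, background 25.4%). The replicate lists gave 88.9% ± 1.12 (SD, n = 2) for the pooled promoter peaks. Hosts had longer qualifying sequence than all owners, with a median of 980 bp against 212 bp, and longer owners had promoter peaks more often. Within groups of like length hosts still had the higher share. Above 2000 bp they were 92.3% of hosts and 84.1% of genes without a member, and up to 200 bp they were 78.8% and 53.2%. For IDR promoter summits above 2000 bp they were 48.9% and 27.8%. Of the first 20, CG5984 alone had no pooled promoter summit.

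Summits lay in AT-rich sequence. GC content, averaged over windows reaching 50 bp to either side, was 37.0% (SD 8.68 over the 1229 peaks), against 35.4% for all qualifying 3' UTR sequence and 39.9% at all pooled summits. In the host's direction, GC 350 to 450 bp upstream was 43.2% and the same distance downstream 36.2%. The mean at the summits of all members thus sat between the means of the GC-richer upstream and AT-richer downstream flanks. Whether a flank lay in coding sequence, in the 3' UTR or past the gene was not examined. At the 58 IDR peaks, GC was 45.4% upstream, 35.8% at the summit and 38.0% downstream, so that the mean was lowest at the summit. The SD over these 58 summits was 9.84, so single summits overlapped widely with the other members. The summit was below both of its flanks at 30 of 58 IDR peaks (51.7%) and at 398 of the other 1171 (34.0%). Both replicate lists gave a summit GC above that of the downstream flank, 36.3% against 36.1% in replicate 1 and 36.9% against 36.3% in replicate 2.

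**Figure D5:**
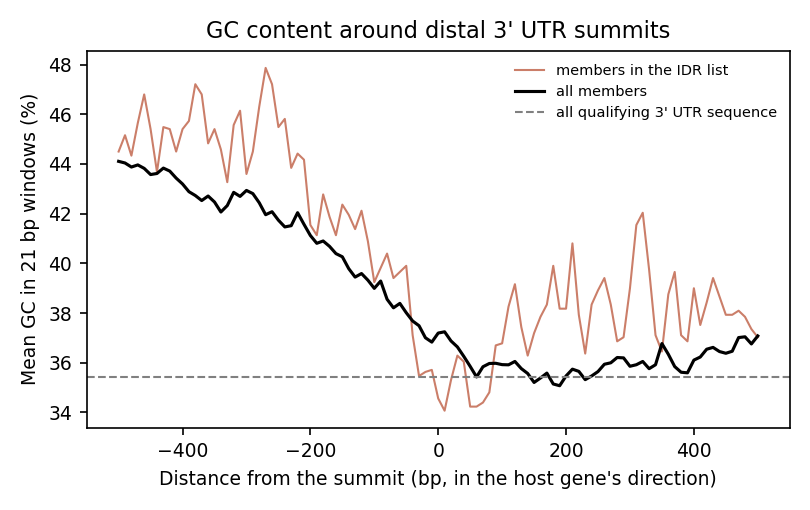
Mean GC in 21 bp windows from 500 bp before to 500 bp after the summit, in the direction of the host gene, for all 1229 members (black) and the 58 IDR members (red), with the mean of all qualifying 3' UTR sequence dashed at 35.4%. The black line descends through the summit without a dip of its own, while the red line has its lowest values around the summit.

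Of the 18 consensus sequences, 11 were more frequent at the summits than elsewhere in distal 3' UTRs, and 4 of these by more than 1 percentage point. In the replicate lists 13 and 9 were more frequent. The TATA box, T tracts, the poly(A) signal AATAAA and the AU-rich element were less frequent at the pooled summits by more than 1 percentage point. T tracts and AATAAA were less frequent in both replicate lists as well. The TATA box and the AU-rich element were less frequent in replicate 2 but not in replicate 1. There they were at 20.5% against 19.8% and at 6.06% against 5.87%. Windows of 50 bp each side were compared with 58704 windows of the same length tiled over qualifying sequence, DNA elements on both strands and RNA elements on the host strand. The DRE core CGATA, which lies within the full DRE TATCGATA and is also a core of BEAF-32 sites, was in 207 windows (16.8%, exact 95% interval 14.8 to 19.1%) against 13.03%. The replicate lists gave 16.9% and 15.0%. The full DRE was in 5 windows (0.407% against 0.267%). The forkhead site GTAAACA was in 49 (3.99% against 2.38%), and the lists of replicate 1 and 2 gave 3.54% and 3.28%. GAGA repeats (GAGAGAG) were in 29 (2.36% against 1.32%), with 2.13% and 2.24% in the replicates. The GATA site AGATAAG was in 26 (2.12% against 1.09%), but the replicates differed, at 3.62% and 1.52%. The CRE TGACGTCA was in 4 (0.325% against 0.0647%), and in the replicate lists at 0.0787% and 0.160%.

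The Ohler core promoter motifs were rare. Ohler motif 1 was in no window, which is a share of at most 0.300% by the exact interval. Ohler motif 6 was in 1 and Ohler motif 7 in 14 (1.14% against 0.595%, with 0.630% and 0.480% in the replicate lists). The E-box CACGTG was in 9 (0.732% against 0.693%) and the TATA box TATAAA in 227 (18.5% against 19.8%). CA repeats (CACACACA) were at 3.42% against 3.07%, and T tracts (TTTTTTTT) at 6.43% against 8.20%. Elements that act in the RNA were no more frequent than in the tiled windows, or little more. The poly(A) signal AATAAA was at 15.5% against 17.4%, its variant ATTAAA at 11.7% against 11.9%, the AU-rich element TATTTAT at 4.15% against 5.87%, and the Pumilio element TGTANATA at 4.96% against 4.56%. The direction depended on the background. In the members' own flanks, which need not meet the rule, AATAAA was at 12.3%, ATTAAA at 8.22% and the Pumilio element at 3.01%, all below the summits. The AU-rich element was at 4.88% there, above the summits.

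Among the 58 IDR peaks, 5 windows held the AP-1 site TGANTCA (8.62%, where all members had 1.79% and the tiled windows 1.76%). They were 2 peaks in by, at signals 486.1 and 167.8, and 1 each in CG5984, aay and puml. This count was singled out after its value was seen. The 30 bases printed for by hold the site as TGATTCA in capitals. The forkhead site was in 4 of the 58, at by, CG30159, Ugt35C1 and Nt5a.

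Peaks per Mb of qualifying sequence differed between arms. Arm 2R had 244 per Mb, 3R 231, 3L 209, 2L 199, X 172 and chromosome 4, with 7 peaks, 72.2. The replicate lists differed most on chromosome 4, at 72.2 per Mb in replicate 1 and 124 in replicate 2, and then on X, at 192 and 153, while on 3L they gave 208 and 210. Of the IDR peaks, 15 were on 2R, 15 on 3R, 12 on 3L, 9 on X, 6 on 2L and 1 on chromosome 4. Mostly repeat-masked peaks were 26 of the 1229 (2.12%), against 1.07% of all pooled peaks.

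Lists of genes with known roles were counted next, beside the background of 9.23% of all owners and the median length of qualifying sequence in each list. Genes within a list vary in length, so a group of all genes chosen by the list's median is not matched to it. Whether a list's share goes beyond length was not tested. Among 14 genes known for long neural 3' UTRs, 9 held a peak (AGO1, Hrb27C, brat, chinmo, elav, fne, nej, nmo and shep), and the median qualifying length of the list was 5622 bp. The 9 are 64.3% of the list, beside 38.1% of all genes with more than 2000 bp. That group starts far below the list's median of 5622 bp, so the 2 shares are not for genes of like length. The lists of replicate 1 and 2 had 8 and 12 of the 14. None of their 14 peaks was in the IDR list. The strongest was in nej, which encodes the acetyltransferase CBP (signal 62.0, ranks 8500 and 12226), then in AGO1, the microRNA-loaded Argonaute (signal 49.9, ranks 14237 and 12504), and in nmo, the Nemo kinase gene (signal 41.2), where replicate 1 had no peak.

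Of 27 RNA-binding regulators, 9 held a peak, with a median qualifying length of 3449 bp, and the replicate lists had 10 and 15. After AGO1 the highest were in Rox8, a TIA-1 homologue (signal 46.9, ranks 13523 and 12257), and Tis11, which binds AU-rich elements (signal 45.6, rank 11465 in replicate 1 and no peak in replicate 2). Of 26 synapse and ion channel genes, 9 held a peak, with a median length of 3932 bp, and the replicate lists had 7 and 11. They included brp, the active zone scaffold Bruchpilot (signal 64.6, ranks 11361 and 12965), the syntaxin gene Syx1A (signal 34.9) and the potassium channel gene Shal (signal 32.0). Neither list had an IDR peak. All genes with more than 2000 bp held a peak at 38.1%, close to the 33.3% and 34.6% of these lists.

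Transcription factors of stress and signal responses held a peak at 12 of 35 genes (34.3%), with a median length of 1503 bp, and the replicate lists had 13 and 10. Mef2, the muscle differentiation factor, had the highest and the sole IDR peak of the list (signal 133.3, ranks 5938 and 2870). Myc followed (signal 73.1, ranks 12245 and 6668), then Pdp1, a clock transcription factor (signal 57.5, ranks 26226 and 10892). Signalling kinases and growth control genes held a peak at 6 of 27 (22.2%), with a median length of 1091 bp, and the replicate lists had 6 and 7. These were led by wts, the Hippo pathway kinase (signal 60.3, ranks 14861 and 9115), Thor, the translation inhibitor 4E-BP (signal 49.1), and Lk6, a kinase of the initiation factor eIF4E (signal 37.7). Replicate 1 had no peak at Thor or Lk6, where replicate 2 had ranks of 7357 and 16419. Median lengths of the transcription factor and kinase lists both lie between 1000 and 2000 bp, where 27.7% of all genes held a peak.

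Muscle and actin genes held a peak at 5 of 28 (17.9%), with a median length of 860 bp, and both replicate lists had 5. Of all genes with 500 to 1000 bp, 16.7% held one. Actn, the alpha-actinin gene, had signal 102.9 (ranks 4761 and 8782), Act5C, a cytoplasmic actin gene, 81.7 (ranks 14465 and 6004), and bt, which encodes the giant sarcomere protein projectin, 56.9 with a peak in replicate 2 alone. Lipid and sugar metabolism genes held a peak at 5 of 23 (21.7%), with a median length of 327 bp, and the replicate lists had 8 and 5. Of all genes with 200 to 500 bp, 7.10% held one. The 5 were Ald1, Desat1, Hex-A, Lsd-2 and Tps1, and Lsd-2 alone held 4 of the list's 9 peaks. Lsd-2 owns 3080 bp of qualifying sequence, and of all genes with more than 2000 bp 38.1% held a peak. The group of 200 to 500 bp is thus not of like length with the genes that held peaks. Chromatin and promoter factors held a peak at 7 of 26 (26.9%), beside the same 7.10% of all genes with 200 to 500 bp. The median length was 449.5 bp, and each replicate list had 6. Genes with peaks can be far longer than this median, as at nej, whose 3' UTR block at the peak is 4265 bp. The highest were in nej, in Cp190, an insulator protein gene (signal 41.5, ranks 28845 and 12695), and in esc, a Polycomb group gene (signal 33.7, ranks 15707 and 27266). The median signals of the peaks in these 8 lists ran from 27.1 in synapse and channel genes to 56.9 in muscle and actin genes, beside 32.0 over all members.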

How the data were processed

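The files were peak lists in narrowPeak format on dm6. Per the deposited text files, the authors called peaks on each replicate and on the pooled replicates against 1 control alignment, and derived the IDR list from these. It equals the 4867 pooled peaks of highest signal. Which aligner, caller and threshold were used is not given in the sources used here. The deposited signal of a peak was used only to describe and rank peaks within a list, and the deposited −log10 q-value was not used. For 98.6% of members the summit equals the peak's midpoint. Read depth is unknown.

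Positions were read against the BDGP6 gene models of Ensembl release 115 (18164 genes, transposable elements left out) and the RefSeq assembly sequence, whose arms extend past the last peak and annotated base. A replicate peak answered to a member if they overlapped by at least 1 bp, the nearest summit being taken. Consensus sequences were searched in windows of 50 bp each side. Exact 95% intervals are Clopper-Pearson. Distances to a 3' end are genomic. No test was run, since the samples form 1 group. The procedures were tested on simulated data. Python 3.11.15, numpy 2.4.6, pandas 2.3.3 and scipy 1.17.1 were used.

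The members, gene lists and consensus sequences were chosen with earlier results of these data known. Genes named are the hosts of the 20 strongest members, the 3 with the largest replicate rank difference, the 3 farthest from a TSS, the 2 nearest the limit on each side, hosts of 4 or more members, and the 3 strongest members of each of the 8 lists. Others are said to be chosen after their values were seen, or complete a count. Alternatives were peak midpoints, limits of 250 and 1000 bp, each replicate's own list, the 15000 pooled peaks of higher signal, unmasked peaks, 1 member per gene, wider windows, a nearer 3' end and a larger overlap.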

Additional observations from a re-analysis of the deposited data

How the results depend on the processing

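Values were recomputed under each alternative and compared with the SD between the replicate lists. Of 76 recomputed values, 49 moved by no more than that SD (counts by no more than 1.5 times). This count is not a measure of robustness. Midpoints could hardly change a value, since they equal the summit for 98.6% of members. The values from each replicate's own list were judged by an SD taken from those same values. At 250 bp from a TSS the density was 210 per Mb, the IDR share 5.09% and the share within 200 bp of a 3' end 46.9%. At 1000 bp these were 200.0 per Mb, 5.03% and 40.5%. The share of bases near a 3' end was not recomputed at these limits, so neither share can be set beside the 40.2% given above. Among the 15000 pooled peaks of higher signal the density was 55.0 per Mb, the IDR share 17.8%, the share in both replicates 89.3%, the median signal 60.0, the share with an other-strand neighbour 32.5% and the share of hosts with a promoter peak 90.2%; fewer peaks enter there by construction. Without mostly soft-masked peaks the density was 203 per Mb. With the strongest member of each host alone, the density was 172 per Mb, the IDR share 5.28%, the share in both replicates 43.8%, the share near a 3' end 46.8% and the share with an other-strand neighbour 32.4%. Within 100 bp of a 3' end lay 27.4% of peaks, where 13.2% of qualifying bases lie within 50 bp and 10.9% from there to 100 bp. An overlap of at least 50% of the member in both replicates held for 35.9%. Without replicate 1 or 2, that is in the other replicate's own list, the density was 211 to 214 per Mb, the overlap with an IDR peak 6.16 to 6.54%, the share near a 3' end 41.3 to 43.7%, the share of hosts with a promoter peak 88.1 to 89.6% and the GC content 36.3 to 36.9%. The median signals of the replicate lists, 15.8 and 20.2, were not set beside the pooled 32.0, since the signals are on different scales. Their SD was still the yardstick for the pooled medians, so for the median signal that comparison says little. No paired analysis was possible because the samples form 1 group. Depth is unknown, so a 3' UTR with no peak in these lists is not shown to be unbound. The lists end at 30000 peaks, where the distal 3' UTR share was highest.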
